A study of Mus musculus with 4 samples.

Results

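The circadian clock genes examined were Per1, Per2, Per3, Cry1, Cry2, Clock, Nr1d1, Nr1d2, Dbp and Cipc, 10 of the 17492 protein-coding genes with a known start. They were chosen by name, with earlier results of these data in view, peak presence included. Their chromatin was described by ATAC-seq peaks whose summit lay inside the gene or within 50 kb of it. ATAC-seq uses a transposase to insert adapters into open DNA, and a peak marks a stretch of accessible chromatin. The cells were 10T1/2, a mouse embryonic fibroblast line, either lacking Ranbp2 after CRISPR-Cas9 editing (knockout, 2 libraries, per the series' design text from a clone selected after single-cell sorting) or carrying the intact gene (wild type, 2 libraries). Ranbp2 encodes a nucleoporin of the cytoplasmic face of the nuclear pore. The labels give no time of harvest and no synchronisation of the cultures, and they do not say whether replicates came from separate cultures.

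The mammalian clock is a feedback loop of transcription. CLOCK, with its partner BMAL1 (gene Arntl), binds E-boxes and activates the Per and Cry genes, whose proteins return to the nucleus and repress CLOCK-BMAL1. Nr1d1 and Nr1d2 encode REV-ERB-alpha and REV-ERB-beta, which repress Arntl through ROR elements, and Dbp encodes an activator that binds D-boxes. CIPC binds CLOCK and inhibits it. Fibroblasts in culture carry this loop, and single cells drift out of phase unless they are synchronised.

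The promoter sequences that carry these elements, and that peaks of at least 1 library cover in full or in part, are shown for 4 of the genes. Each is the RefSeq window of GRCm38.p6 from 250 bases before to 50 bases after a gene start, on the gene's strand, with capitals marking each match to the E-box CACGTG, the related CACGTT, the D-box TTATGNAA, or AGGTCA of the ROR element, on either strand. Cry1 is shown because a peak over its E-box was present in wild-type libraries only, Cipc because its E-box lay under a peak in all 4 libraries, Per3 for its D-boxes, and Per1 for 3 different elements in 1 window.
Cry1, chr10:85185005-85185304, minus strand: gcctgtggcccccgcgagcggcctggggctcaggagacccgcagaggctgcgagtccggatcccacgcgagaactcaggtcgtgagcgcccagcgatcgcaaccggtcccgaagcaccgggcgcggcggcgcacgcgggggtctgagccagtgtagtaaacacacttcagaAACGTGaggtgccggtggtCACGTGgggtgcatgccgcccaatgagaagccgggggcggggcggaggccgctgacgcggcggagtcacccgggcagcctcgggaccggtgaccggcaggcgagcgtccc
Cipc, chr12:86947093-86947392, plus strand: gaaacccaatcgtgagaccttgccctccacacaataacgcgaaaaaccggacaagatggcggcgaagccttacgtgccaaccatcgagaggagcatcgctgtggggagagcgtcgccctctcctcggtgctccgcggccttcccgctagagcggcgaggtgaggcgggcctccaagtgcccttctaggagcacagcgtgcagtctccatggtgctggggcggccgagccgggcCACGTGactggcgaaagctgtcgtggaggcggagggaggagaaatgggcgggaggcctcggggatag
Per3, chr4:151044616-151044915, minus strand: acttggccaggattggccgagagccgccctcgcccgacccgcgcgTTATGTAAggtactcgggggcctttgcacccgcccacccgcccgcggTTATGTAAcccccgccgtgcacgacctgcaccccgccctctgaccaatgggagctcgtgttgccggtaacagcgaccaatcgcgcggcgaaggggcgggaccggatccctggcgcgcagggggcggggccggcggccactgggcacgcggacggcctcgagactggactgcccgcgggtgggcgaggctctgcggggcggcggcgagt
Per1, chr11:69098699-69098998, plus strand: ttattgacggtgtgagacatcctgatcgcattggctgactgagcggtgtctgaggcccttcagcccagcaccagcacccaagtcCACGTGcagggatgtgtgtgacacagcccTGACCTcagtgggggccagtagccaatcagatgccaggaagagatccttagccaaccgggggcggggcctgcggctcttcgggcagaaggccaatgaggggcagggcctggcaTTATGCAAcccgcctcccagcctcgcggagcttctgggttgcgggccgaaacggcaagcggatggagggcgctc

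Over 13 such windows of 9 clock genes, CACGTG was found in those of Per1, Cry1 and Cipc, against 7.84% of all 21262 promoter windows. CACGTT was found at Cry1, Cry2 and Nr1d1 (4.68% of all windows). The D-box was found at Per1 and Per3 (3.09% of all windows), and AGGTCA at Per1, Clock and Nr1d2 (14.7% of all windows). The cAMP response element TGACGTCA was found in 0 of the 13 windows and in 2.23% of all. A match gives letters only and does not show binding, and promoters that hold these letters outside this window are not counted.

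The knockout lists held 13877 and 24292 peaks, against 33721 and 18511 in the wild-type lists; here and below, replicate 1 comes before replicate 2 within a genotype. Of 10 fibroblast markers, 6 had a start in the RefSeq promoter table. Col1a2 and Vim had a start peak in all 4 libraries and Pdgfra in none. Twist1 had one in both wild-type libraries only, and Col3a1 and Prrx1 in wild-type replicate 1 only. Col1a1, Pdgfrb, Thy1 and Fn1 had no start in that table and were not examined. The same held for Cdh1, Pecam1, Cdh5 and Spi1. The 7 epithelial, endothelial, immune and pluripotent markers with a start there had a start peak in 0 libraries. Because peaks were called in each library separately and the lists differ in length, a missing peak is a site below that list's threshold (a −log10 q of about 3), and a rank in one list shows no change against a rank in another. Fold below is the authors' enrichment of a peak summit over its own library's background. Bulk libraries cannot tell fewer cells with an open site from a less open site in each cell. Genotypes are compared by whether their values overlap, with no test, since the genes were chosen with these data in view.

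The starts of the clock genes were open in both genotypes, with Clock as the exception. For 9 of the 10 genes a peak lay within 1 kb of a start in all 4 libraries, which was the case for 28.8% of all protein-coding genes. The choice of the 10 genes used peak presence, so this contrast describes them and does not show a trait of clock genes. Of 17 other genes of the clock and its regulators, described below, 35.3% had a start peak in all 4 libraries. Clock had a start peak in wild-type replicate 1 alone. No clock gene had a start peak in the 2 knockout libraries alone (0.0343% of all genes) or in the 2 wild-type libraries alone (1.78%). None lacked one throughout, whereas 54.1% of all genes did. The whole windows held 85 merged regions. A peak in every library was found at 41 of them (48.2%), against 28% of all 39137 merged regions. Windows placed on genes held a larger share of regions near gene ends, given below, so these 2 shares do not compare like with like. A single region, inside Cipc, was shared by the knockout libraries and absent from both wild-type ones (1.18% of the 85, against 0.953% of all regions). The reverse, shared by the wild-type libraries and absent from both knockout ones, was found at 7 clock regions, 8.24% of the 85, against 6.52% of all regions. A further 17 clock regions (20%) were seen in wild-type replicate 1 only, which had the longest list, against 28.2% of all regions.

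The lists were also compared at equal length, with each reduced to its 13877 top-ranked peaks. The clock windows then held 60 regions, of which 36 had a peak in every library (44.9% of all regions did). Regions of the knockout libraries alone numbered 2, in Cipc and Cry2 (5.23% of all regions), and those of the wild-type libraries alone numbered 4 (6.2% of all regions). These 4 lay at the Cry1 start, at Aloxe3 near Per1, and at Tmem165 and inside Pdcl2 in the Clock window, and 3 of them were among the 7 found at full length. The Tmem165 region was the exception. Start peaks remained in all 4 libraries for 9 clock genes, against 26.4% of all genes, and in 1 genotype alone for 0 of them, against 0.429% of all genes for knockout and 1.42% for wild type.

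**Figure D1:**
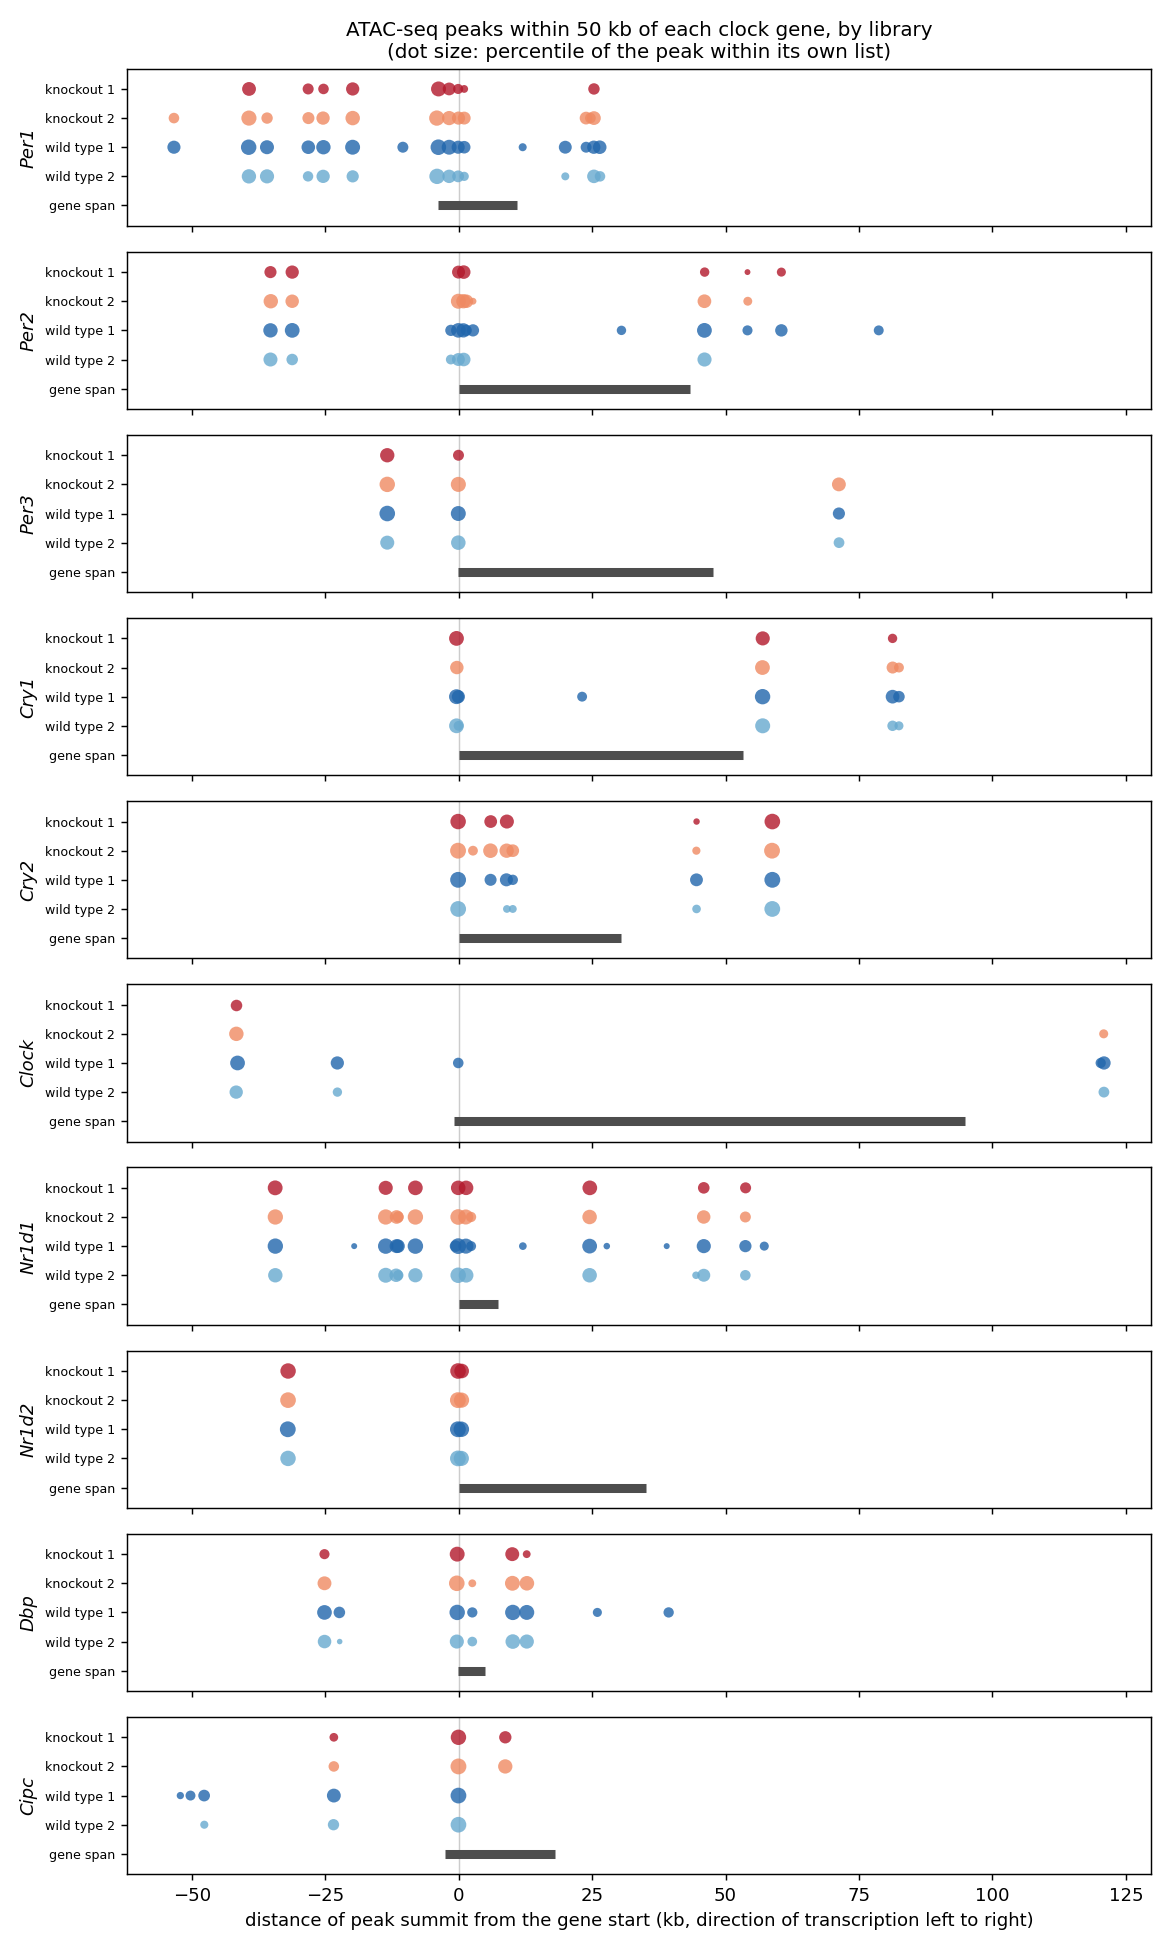
Position of each peak summit (x axis, distance from a start of the gene in kb, with transcription from left to right) for the 10 clock genes, with 1 row per library, knockout above wild type, and the gene span as a grey bar. Dot size is the percentile of the peak in its own list. Dots stand at the start in all 4 rows for every gene but Clock.

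Of the 85 regions, 15 lay within 1 kb of a start of the clock gene, 13 elsewhere inside its span, 24 at a boundary of a neighbouring gene and outside the clock gene, 2 at another end of the clock gene, and 31 away from any gene boundary. A gene boundary here means the 1 kb on each side of a known start or of an end of a protein-coding gene's span. Regions at gene boundaries made up 48.2% of the 85 clock regions, against 29.2% of all merged regions. They made up 27 of the 41 (65.9%) clock regions in all 4 libraries, against 51.8% of all regions in all 4. They made up 35% of the 20 clock regions seen in a single library, against 15% of all single-library regions. The outermost region inside the 50 kb window lay 49.8 kb from Nr1d1 and was present in 1 library. The nearest one outside the window lay 50.2 kb from Cipc and was present in 3.

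Clock, the DNA-binding activator of the loop, had the fewest start peaks of the 10 genes. Clock (gene 12753) spans 76209868-76305603 on chromosome 5, and the table gives 3 starts near its higher end. Its only start peak, at 76304747-76304937, had a fold of 7.05 and rank 21087 of 33721 in wild-type replicate 1. The nearest summits in the knockout libraries lay 41.6 kb away in both, against 22.6 kb in wild-type replicate 2. The Clock window also held a region at 76327403-76327646, inside Pdcl2 and 22.7 kb upstream of the start, with folds of 11.4 and 7.89 in the wild-type libraries and no peak in either knockout library. The region in all 4 libraries nearest to Clock lay 41.6 kb upstream.

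Among the Per genes, the repressors of the loop that pair with cryptochromes, Per2 had a start region that ranked higher in both knockout libraries. For this comparison, each region with a peak in all 4 libraries was ranked by −log10 q among the 10977 such regions, so that the 4 ranked sets have the same length, and given a percentile with 100 at the top. Per2 has no entry in the promoter table, and its start was taken as the 5′ end of its span. The Per2 start region (chromosome 1, 91459261-91459608; gene 18627, span 91415977-91459351) stood at percentiles 53.8 and 72.5 in knockout cells, against 47.1 and 40.7 in wild-type cells, a difference of means of 19.3 points. The 2 genotypes did not overlap. Its folds were 6.44 and 9.05 in knockout libraries, against 8.90 and 7.59 in wild-type libraries, and on this scale the genotypes did overlap. A second region 913 bp downstream of the start stood at 62.1 and 53.0 in knockout cells, against 38.6 and 50.9 in wild-type cells, also without overlap. When regions were ranked by fold, the start region remained without overlap (16.5 points), whereas the downstream one overlapped (9.60 points).

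Other regions of the Per2 window did not share this order. A region 1.46 kb upstream of the start, at 91460710-91460919, had folds of 4.72 and 5.51 in wild-type libraries and no peak in either knockout library, where the nearest summits lay 1.44 and 1.41 kb away, in the start region. That upstream region was not kept as a wild-type-only one with equal list lengths. Inside Per2, 2 regions at 1.43 and 2.68 kb from the start were present in knockout replicate 2 and wild-type replicate 1 only, the longer list of each genotype, and a region 30.5 kb from the start in wild-type replicate 1 only. Common regions of chromosome 1 had a median difference of 1.92 points between knockout and wild-type cells, against -0.551 over all common regions.

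At Per1 the accessible chromatin was spread over several regions upstream of the starts in the promoter table. The regions at those starts were among the weaker ones. Per1 (gene 18626, chromosome 11, 69095108-69109965) has 2 starts in the table. The start region at 69098783-69098946, within the printed window, stood at percentiles 23.3 and 28.6 in knockout cells, against 15.4 and 27.7 in wild-type cells. At the second start, 69099917-69100144 stood at 8.63 and 24.7 in knockout cells, against 10.3 and 9.93 in wild-type cells. Both start regions overlapped between genotypes. The strongest Per1 region lay 88 bp from the 5′ end of the span, the kind of position taken as the start for Per2. It lay 3.93 kb upstream of the nearest start in the promoter table and is not counted here as a start region. Its percentiles were 83.6 and 81.2 in knockout cells, against 85.5 and 87.5 in wild-type cells. That region was lower in both knockout libraries, with a difference of -4.10 points, but ranked by fold it overlapped and the sign turned (6.72 points). A region 1.78 kb upstream of the start stood at 51.7 and 51.0 in knockout cells, against 58.4 and 48.3 in wild-type cells. The E-box 166 bases upstream of the Per1 start lay inside the peak of knockout replicate 1 only, at its edge. The AGGTCA match 137 bases upstream lay inside all 4 peaks, and the D-box 24 bases upstream lay inside those of knockout replicate 2 and both wild-type libraries.

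Downstream of Per1, 2 regions at the boundaries of neighbouring genes had peaks in the wild-type libraries alone. One lay at Hes7, a Notch-driven repressor of the segmentation clock (69118821-69118970), with folds of 8.18 and 5.95 in wild-type libraries. The Hes7 region was not kept as a wild-type-only one with equal list lengths. The other lay at Aloxe3, an epidermal lipoxygenase (69125175-69125567), with folds of 7.60 and 6.12 in wild-type libraries. The nearest knockout summits to the Hes7 region were 5.37 and 3.90 kb away, and those to the Aloxe3 region 1.11 kb in both.

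Per3, a paralog that is less central to the loop, had its start region in all 4 libraries and no summit further inside the gene. That region (chromosome 4, 151044601-151045031; gene 18628, span 150997018-151044707) stood at percentiles 31.1 and 74.2 in knockout cells, against 59.6 and 68.5 in wild-type cells. Knockout replicate 1 was the lowest and knockout replicate 2 the highest of the 4 libraries, so the genotypes overlapped. The 2 D-boxes of the printed window, 205 and 158 bases upstream of the start, lay inside the peak in each library.

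The cryptochromes, the strongest repressors of CLOCK-BMAL1, differed from each other in where their regions varied. Cry2 (gene 12953, chromosome 2, 92403646-92434085) had a very strong start region with nearly the same rank everywhere, and regions inside the gene that ranked unevenly. The start region at 92434027-92434342 had folds of 13.2 and 19.9 in knockout libraries, against 22.0 and 21.5 in wild-type libraries, and percentiles of 92.0 and 97.6 in knockout cells, against 95.6 and 95.8 in wild-type cells. The CACGTT match 166 bases upstream of the start lay inside all 4 peaks.

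Inside Cry2, 9.01 kb downstream of the start, the region at 92424925-92425249 had the largest difference of the 41 clock regions in all 4 libraries. It ranked 3488 of 13877 and 5120 of 24292 peaks in knockout lists, against 12350 of 33721 and 15780 of 18511 in wild-type lists. Among common regions its percentiles were 68.8 and 54.4 in knockout cells, against 14.7 and 4.37 in wild-type cells, a difference of 52.0 points with no overlap. Ranked by fold, the difference was 32.0 points, also with no overlap. Its folds were 8.01 and 8.10 in knockout libraries, against 8.32 and 5.56 in wild-type libraries, so wild-type replicate 1 had the highest value when folds were not ranked. Chromosome 2 had a median difference of -0.533 points. This region was in neither deposited differential list.

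A neighbouring region inside Cry2 was in the authors' deposited list of knockout-enriched regions (92423731-92424130, 400 bp wide). The peaks under it, 10.1 kb from the start, had a fold of 5.91 in knockout replicate 2 and none in knockout replicate 1, against 5.64 and 5.71 in the wild-type libraries. Presence and fold in the peak lists therefore did not separate the genotypes there. Its ranks were 9946 of 24292 in knockout replicate 2, against 21737 of 33721 and 15540 of 18511 in wild-type libraries. A further region inside the gene, 5.98 kb from the start (92428013-92428201), had folds of 6.67 and 8.44 in knockout libraries, against 6.61 in wild-type replicate 1 and no peak in wild-type replicate 2. At equal list length it was present in the knockout libraries alone. The last region inside Cry2, 2.68 kb from the start, was present in knockout replicate 2 only, with a fold of 4.19.

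**Figure D2:**
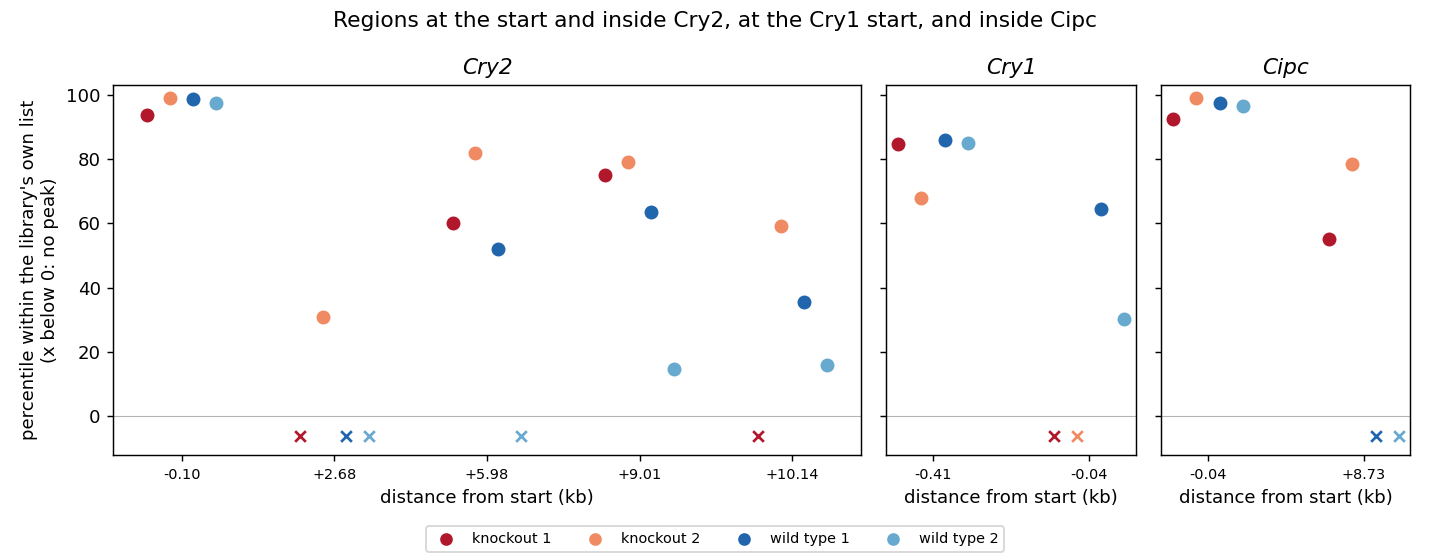
Percentile of each peak within its own library's list (y axis, 100 at the top; crosses below 0 mark a library with no peak) for the regions at the start and inside Cry2, at the start of Cry1 and inside Cipc, by distance from the start in kb (x axis). The 4 libraries coincide near the top at the Cry2 and Cipc starts, while the Cry2 region at 9.01 kb reaches 74.9 and 78.9 in knockout lists, against 63.4 and 14.8 in wild-type lists, which differ in length.

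Cry1 had a double start region, of which the part over the E-box was seen in wild-type libraries only. Cry1 (gene 12952, chromosome 10, 85131700-85185054) had a region in all 4 libraries 407 bp upstream of the start (85185314-85185573), with folds of 11.9 and 8.58 in knockout libraries, against 13.9 and 15.1 in wild-type libraries. Its percentiles were 80.9 and 33.9 in knockout cells, against 57.5 and 74.6 in wild-type cells, so that the 2 knockout libraries held the highest and the lowest value. The second region, 85185029-85185160, covered the start itself and had folds of 8.43 and 6.80 in wild-type libraries and no peak in either knockout library. It holds both capitalised elements of the printed Cry1 window, the E-box 60 bases and the CACGTT match 79 bases upstream of the start. The nearest knockout summits were 368 and 301 bp away, in the upstream region. The start peak ranked 12045 of 33721 and 12885 of 18511 in the wild-type lists, in the lower part of the second list, and the wild-type libraries alone still held it at equal list length.

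Cry1 lies on chromosome 10, 26.6 Mb from Ranbp2, where common regions as a whole ranked lower in knockout cells. The median difference on that chromosome was -5.46 points over 562 common regions, against -8.65 points for the upstream Cry1 region. Ranks were lower in both knockout libraries for 41.6% of the common regions of chromosome 10 and for 25% of all common regions. The part of this chromosome-wide shift in the Cry1 values was not tested.

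Cipc, the CLOCK inhibitor, held the only clock region that the knockout libraries alone shared. Cipc (gene 217732, chromosome 12) spans 86944741-86965364, and the region at 86955997-86956176 lay inside it, 8.73 kb downstream of the start. Its folds were 7.70 and 10.7, with rank 6221 of 13877 in knockout replicate 1 and 5244 of 24292 in knockout replicate 2. The summits lay at 86956081 and 86956074. The nearest wild-type summits were 8.77 kb away in both libraries, at the Cipc start. It remained a region of the knockout libraries alone at equal list length. It was in neither deposited differential list.

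The start of Cipc, in contrast with the region inside the gene, had similar ranks in all libraries. The start region at 86946985-86947462 had percentiles of 90.6 and 97.4 in knockout cells, against 92.5 and 94.2 in wild-type cells, and its E-box, 17 bases upstream of the start in the printed window, lay inside all 4 peaks. Upstream, a region 23.1 kb from the start stood at 13.4 and 5.78 in knockout cells, against 27.2 and 22.6 in wild-type cells, without overlap, also when ranked by fold. A region 47.4 kb upstream (86899593-86899766) was present in both wild-type libraries only, with folds of 6.46 and 6.05, and was not kept with equal list lengths. The median difference of chromosome 12 was 0.870 points.

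The REV-ERB genes had strong start regions that overlapped between genotypes, and Nr1d1 had a region inside the gene that ranked higher in both knockout libraries. Nr1d2 (gene 353187, chromosome 14, 18204056-18239106) had its start region at 18239004-18239532, with percentiles of 94.3 and 96.4 in knockout cells, against 94.9 and 95.4 in wild-type cells, and its AGGTCA match 77 bases upstream of the start lay inside all 4 peaks. The difference was 0.164 points by −log10 q and 9.09 points by fold, with overlap under both rankings. A region 516 bp downstream of the Nr1d2 start stood at 78.5 and 79.0 in knockout cells, against 82.7 in both wild-type libraries, without overlap, but it overlapped when ranked by fold and the sign turned (-3.92 and 2.28 points). All 3 regions of the Nr1d2 window were present in all 4 libraries.

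Nr1d1 (gene 217166, chromosome 11, 98767932-98775377) had 18 regions in its window, the most of the 10 genes, 7 of them in a single library. Its start region at 98775238-98775715 stood at 76.5 and 90.8 in knockout cells, against 90.0 and 89.5 in wild-type cells. Knockout replicate 1 alone was low, and the mean difference was -6.11 points by −log10 q and 5.96 points by fold, so its direction depended on the ranking. The CACGTT match 28 bases upstream of the start lay inside all 4 peaks. Inside the gene, 1.37 kb downstream of the start, the region at 98773720-98774201 stood at 75.9 and 73.6 in knockout cells, against 64.8 and 72.0 in wild-type cells, without overlap under either ranking. The median difference of chromosome 11 was -1.04 points.

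The strongest clock regions away from gene boundaries and present in all 4 libraries were this region and 2 others upstream of Nr1d1. The region 13.7 kb upstream (98788865-98789155) had folds of 9.04 and 12.8 in knockout libraries, against 15.04 and 13.5 in wild-type libraries. Its percentiles of 70.2 and 80.7 in knockout cells overlapped those of 78.1 and 77.8 in wild-type cells, and the difference was -2.55 points by −log10 q and 4.93 points by fold. The region 8.11 kb upstream (98783352-98783638) stood at 78.6 and 82.3 in knockout cells, against 79.2 and 62.1 in wild-type cells. Those values overlapped, but ranked by fold this region stood at 71.4 and 75.4 in knockout cells, against 64.4 and 48.5 in wild-type cells, a difference of 17.0 points without overlap.

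Dbp, the D-box activator and an output gene of the loop, had a start region that ranked higher in both knockout libraries. Dbp (gene 13170, chromosome 7, 45705100-45710203) had this region at 45704768-45705088, just upstream of the start, with folds of 11.1 and 15.01 in knockout libraries, against 16.3 and 11.6 in wild-type libraries. Its percentiles were 82.7 and 88.9 in knockout cells, against 77.7 and 59.8 in wild-type cells, a difference of 17.0 points without overlap. Ranked by fold the difference was 21.8 points, again without overlap, although the folds themselves overlapped. The median difference of chromosome 7 was -0.105 points. The other regions of the Dbp window in all 4 libraries had negative differences. A region inside Sec1, 25.1 kb upstream of the start, differed by -16.9 points without overlap (-24.6 points by fold, also without overlap). A region 10.1 kb downstream differed by -4.83 points without overlap, but it overlapped when ranked by fold. The region 12.8 kb downstream differed by -25.8 points with overlap. Inside Dbp, 2.55 kb from the start, a weak region was present in knockout replicate 2 with a fold of 4.07, against 5.10 and 6.47 in the wild-type libraries. Upstream of Dbp, 22.3 kb from the start and inside Sec1, a region at 45682835-45682967 was present in both wild-type libraries only, with folds of 7.44 and 4.93. It was not kept with equal list lengths.

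**Figure D3:**
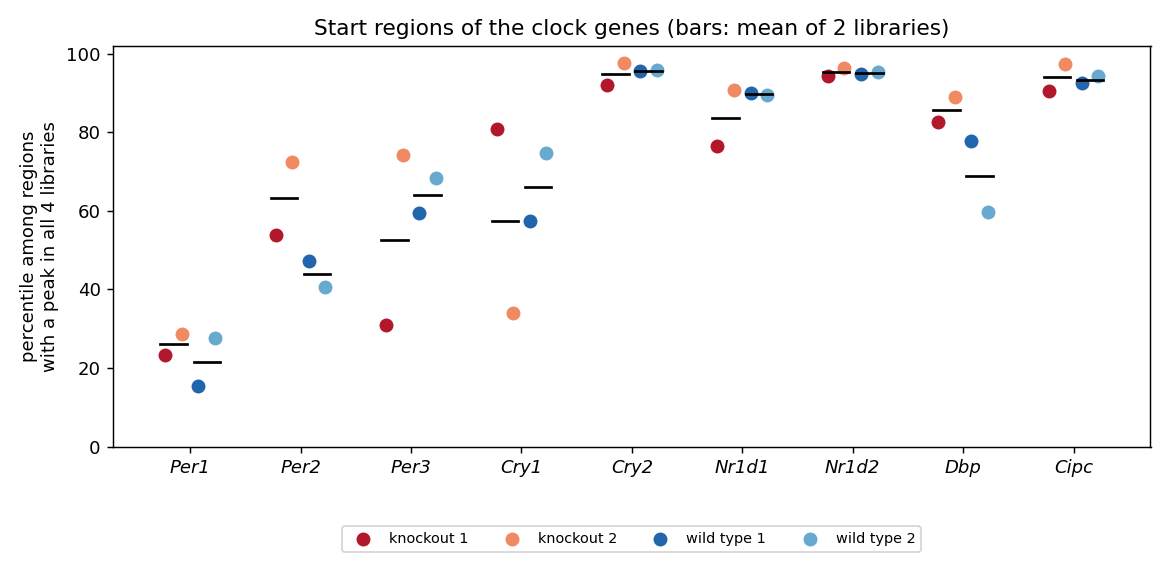
Percentile among the 10977 regions with a peak in all 4 libraries (y axis) for the start regions of 9 clock genes (x axis), with a point per library, knockout left of wild type, and bars at the mean of 2 libraries. Per2 and Dbp are the genes whose 2 knockout points both lie above both wild-type points.

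Across the 9 start regions in all 4 libraries, Per2 and Dbp ranked higher in both knockout libraries, 0 ranked lower in both, and 7 overlapped. The differences ran from -11.4 to 19.3 points with a median of 0.164, against a median of -0.551 over all common regions. Knockout replicate 2 held the highest percentile in 8 of the 9 start regions, and knockout replicate 1 the lowest in 5, those of Per3, Cry2, Nr1d1, Nr1d2 and Cipc. The 2 knockout libraries therefore lay on opposite sides of the wild-type libraries at Per3, Cry2, Nr1d1, Nr1d2 and Cipc. They did so at Cry1 as well, in the reverse order, with knockout replicate 1 highest and knockout replicate 2 lowest. For all 41 clock regions, 6 (14.6%) ranked higher in both knockout libraries, against 22.7% of all common regions, and 9 (22%) ranked lower in both, against 25% of all common regions. The clock regions thus had no larger share of separated ranks than common regions did. Replicates of a genotype differed by a median of 6.86 points in knockout and 6.50 points in wild-type cells over these 41 regions. Ranked by fold, 7 clock regions were higher (21.8% of all common regions were) and 6 lower (22% of all), of which 5 and 6 had the same order by −log10 q.

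**Figure D4:**
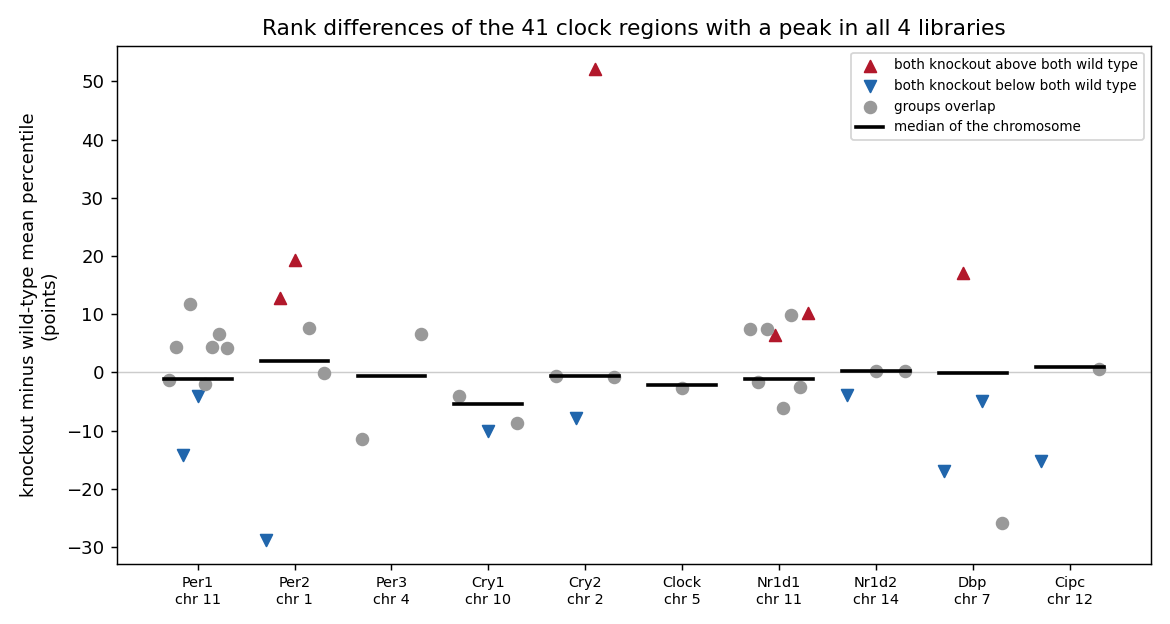
Difference of the mean percentile, knockout minus wild type, in points (y axis) for the 41 clock regions with a peak in all 4 libraries, by gene and chromosome (x axis). Triangles mark regions whose 2 knockout values lie above or below both wild-type values, and black bars give the median of all common regions on that chromosome. The Cry2 region at 52.0 points stands apart from the others, which lie between -28.8 and 19.3 points.

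The deposited differential lists touched the clock windows at 2 places, both knockout-enriched. Besides the region inside Cry2, a region at 91405038-91405437, 10.5 kb beyond the 3′ end of Per2 and 6.25 kb from Hes6, was listed. The peaks under it had folds of 4.76 and 5.05 in knockout libraries, against 6.56 in wild-type replicate 1 and no peak in wild-type replicate 2. Of all merged regions, 0.491% overlapped the knockout-enriched list and 0.493% the wild-type-enriched list. The nearest wild-type-enriched region to a clock gene lay 55.9 kb from Cipc, outside its window. For the remaining 7 genes the nearest region of either list lay between 214 kb away, for Cry1 and wild-type-enriched, and 11630 kb away, for Clock and also wild-type-enriched.

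Of 22 other genes of the clock and its regulators, 17 had a start in the promoter table and are described here. A start peak was present in all 4 libraries for 6 of the 17, against 28.8% of all genes. These were Arntl, which encodes BMAL1, Ciart, a repressor of CLOCK-BMAL1, Tef, a D-box factor related to Dbp, Noct, a rhythmic phosphatase, and Fbxw11 and Gsk3b, regulators of clock protein stability. No start peak was found in any library for 8 of the 17, against 54.1% of all genes. These 8 were Arntl2, Csnk1e, Hlf, Npas2, Rora, Rorb, Timeless and Usp2. None of the 17 had one in both libraries of a single genotype, against 0.0343% of all genes for knockout and 1.78% for wild type. Bhlhe41 lacked one in wild-type replicate 2 alone, and Nfil3 and Fbxl21 had one in wild-type replicate 1 alone. The Arntl start had folds of 10.8 and 13.2 in knockout libraries, against 18.9 and 16.8 in wild-type libraries, and it ranked lower in both knockout libraries, with a difference of -9.58 points. The Fbxw11 start ranked higher in both, with a difference of 4.02 points, and the other 4 overlapped. Over all common regions, 22.7% ranked higher and 25% lower in both knockout libraries.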

How the data were processed

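Peak lists were available for 4 ATAC-seq libraries of 10T1/2 cells, 2 per genotype. Per the submitters' processing notes, the software comprised MACS2, Bowtie2, cutadapt, DESeq2, DiffBind 2.2.12 and deepTools, the genome build was mm10, and the role of each tool is not stated. The authors deposited for each peak a score, a fold enrichment (a ratio to the background of that library), and a −log10 p and −log10 q. The deposited lists of differential regions give positions only. The files used here hold no read counts, so depth is unknown and no count test was made.

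Overlapping peaks (at least 1 bp) of the 4 lists were joined into 39137 regions. A region belonged to a gene when a summit lay in its RefSeq span (GRCm38.p6, the primary coordinates of mm10) or within 50 kb. Gene starts came from the RefSeq promoter table. Peaks were ranked by −log10 q, and genotypes were compared by rank only among 10977 regions with a peak in all 4 libraries. Members and lists were chosen with earlier results of these data known, and the choice used peak presence, so no test was made. The text names each member's start region, every region in both libraries of 1 genotype only, every region overlapping a deposited differential region, and the 3 strongest regions away from gene boundaries and present in all libraries; other regions were picked after their values were seen. The region and rank steps were tested on simulated data. Python 3.11.15, pandas 2.3.3 and numpy 2.4.6 were used. Alternatives were equal list lengths, a −log10 q of at least 5, other windows, a stricter overlap, ranks by fold and leaving out each library.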

Additional observations from a re-analysis of the deposited data

How the results depend on the processing

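Of 114 recomputed values, 83 stayed within the range set for an unchanged value, 29 moved, and 2 changed sign after the genotypes had not overlapped. With all lists at the length of the shortest, regions of the knockout libraries alone numbered 2 and those of the wild-type libraries alone 4, of which 3 were among the 7 found with the lists as deposited. With the gene span alone, a region counted when the summit of any library lay in the span. There were then 0 wild-type-only regions and 10 in all 4 libraries, of which 3 ranked higher and 2 lower in knockout cells. Within 10 kb there were 3 wild-type-only regions, 21 in all 4 libraries and 5 ranked lower. Ranked by fold, the start region of Nr1d1 differed by 5.962 points, against -6.113 by −log10 q, and that of Nr1d2 by 9.092 points, against 0.164. Of the 41 clock regions in all 4 libraries, 10 had the other sign by fold. Genotypes overlapped by −log10 q at 8 of these, the Cry2 and Nr1d1 starts included. They did not at 2, at the 5′ end of the Per1 span (6.719 points by fold) and inside Nr1d2 (2.282 points). Ranks by fold of regions other than the starts were added after seeing the data. Leaving out each library in turn gave 1 to 3 knockout-only and 7 to 24 wild-type-only regions, 41 to 49 in all libraries, 9 genes with a start peak in all libraries, and 0 to 1 with one in wild type only (Clock, without wild-type replicate 2). The count of knockout-only regions was 3 when replicate 1 of wild type, or of knockout, was left out, and that of wild-type-only regions was 24 without wild-type replicate 2 and 15 without knockout replicate 2. Ranked higher were then 11 to 19 and lower 13 to 19, since 1 library cannot overlap as easily with 2. No paired analysis was possible because the results come from no test and the labels do not say that a shared replicate number links 2 libraries. Depth is unknown, so a missing peak is not shown to be closed chromatin.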

Other observations

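Genes that share the clock windows had some of the strongest and some of the most uneven regions. The strongest, at a boundary of Pex16, a peroxisome membrane protein, lay in the Cry2 window with percentiles of 94.5 and 96.5 in knockout cells, against 95.9 and 96.4 in wild-type cells. At Hes6, a basic helix-loop-helix factor next to Per2, the start region stood at 18.0 and 38.9 in knockout cells, against 54.0 and 60.5 in wild-type cells, a difference of -28.8 points that is the lowest of the 41 clock regions and had no overlap. At Mterf2, a mitochondrial transcription termination factor next to Cry1, the region stood at 70.2 and 65.7 in knockout cells, against 77.2 and 78.8 in wild-type cells. These regions were picked after their values were seen.

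Of the 14 clock regions in all 4 libraries that lay at a boundary of a neighbouring gene, 1 ranked higher and 4 ranked lower in both knockout libraries, with a median difference of -0.925 points. Of the 8 whose median summit over the libraries lay inside a clock gene span, 3 ranked higher and 1 lower, with a median of 5.41 points. Counting a region when the summit of any library lay inside the span gave 10, with 3 higher and 2 lower. Over all common regions, 22.7% ranked higher and 25% lower, with a median of -0.551 points. The difference between boundary regions and regions inside genes was not tested.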
